A study of Nicotiana benthamiana with 9 samples.

Results

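The comparison covered 6 of the 9 small RNA libraries of the series, the 3 made after siR739 (replicates 7, 8 and 9) and the 3 made after siR386 (replicates 4, 5 and 6), chosen by the sample titles. All came from Nicotiana benthamiana of the 16C line, a transgenic line expressing green fluorescent protein (GFP). The siRNAs were 22 nt long and were delivered to leaves by high-pressure spraying, with a small RNA concentration of 140 ng/µl in every group, and tissue was taken at 6 dps. For each library the silenced areas of 3 leaves went into a common tube, so the spread between libraries is a spread between pools, and nothing in the labels ties libraries to separate plants. Both groups therefore share line, dose, time and tissue and differ in the siRNA. No unsprayed leaves were analysed here, so each value of siR739 is read against siR386 and not against a baseline.

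In plants, an siRNA that guides cleavage of a transcript can recruit an RNA-dependent RNA polymerase (RDR6), which copies the transcript into double-stranded RNA. Dicer-like enzymes cut this RNA into secondary siRNAs, DCL4 into 21-nt and DCL2 into 22-nt products, and DCL3 makes 24-nt products from nuclear templates. Secondary siRNAs then arise outside the primary target site, a spread called transitivity, and primary siRNAs of 22 nt are known as strong triggers of it. The question of the comparison was whether a target site near the 3' end of the GFP transcript (siR739) and a site near its middle (siR386) gave different amounts of secondary small RNA and a different distribution along the transgene.

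The measurement was read coverage at each position of a 792-nt GFP contig, for all read lengths and both strands together, without scaling to library size. The 3 siRNA sites of the study were left out in every library, namely 25, 24 and 24 positions counted from the position that names siR164, siR386 and siR739, and 719 positions remained. Over these, the siR386 libraries summed to 22767, 40510 and 19347 and the siR739 libraries to 13047, 6511 and 8554, here and below in the order of replicates 4 to 6 and 7 to 9. With reads of 22 nt that would be about 1035, 1841 and 879 reads after siR386 and 593, 296 and 389 reads after siR739, so the siR739 profiles were the less precise ones. The left-out positions of the siR386 and siR739 sites held 0 in all 6 libraries, so applied siRNAs lying within these positions were not measured. Whether reads of the applied siRNAs reach into the kept positions beside the sites was not tested. The siR164 site was not empty in siR386 replicate 6, where its 25 positions averaged 39.1 reads against 2.36 over the 25 positions before it. The sheets of the siR386 libraries spell the name siR364, and the sample titles were followed.

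Coverage was lower after siR739 than after siR386. The 3 siR739 libraries had a mean of 18.1, 9.06 and 11.9 reads per position, and the 3 siR386 libraries 31.7, 56.3 and 26.9. The groups did not overlap, the lowest siR386 library lying above the highest siR739 library. The group means were 13.0 ± 4.65 and 38.3 ± 15.8 (SD, n = 3 each), a ratio of 2.94. On log2(coverage + 1) siR739 minus siR386 was −1.47 (SE 0.42, exact two-sided permutation p = 0.1, the smallest that 3 against 3 libraries can give). Because sequencing depth was not analysed here, less transgene small RNA and shallower sequencing cannot be told apart in these raw values, nor can fewer silenced cells and less small RNA per cell. The scaling of the authors' deposited table, which has a pooled column per group, is not stated, and in it the siR386 column sum was 3.31 times that of siR739.

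**Figure D1:**
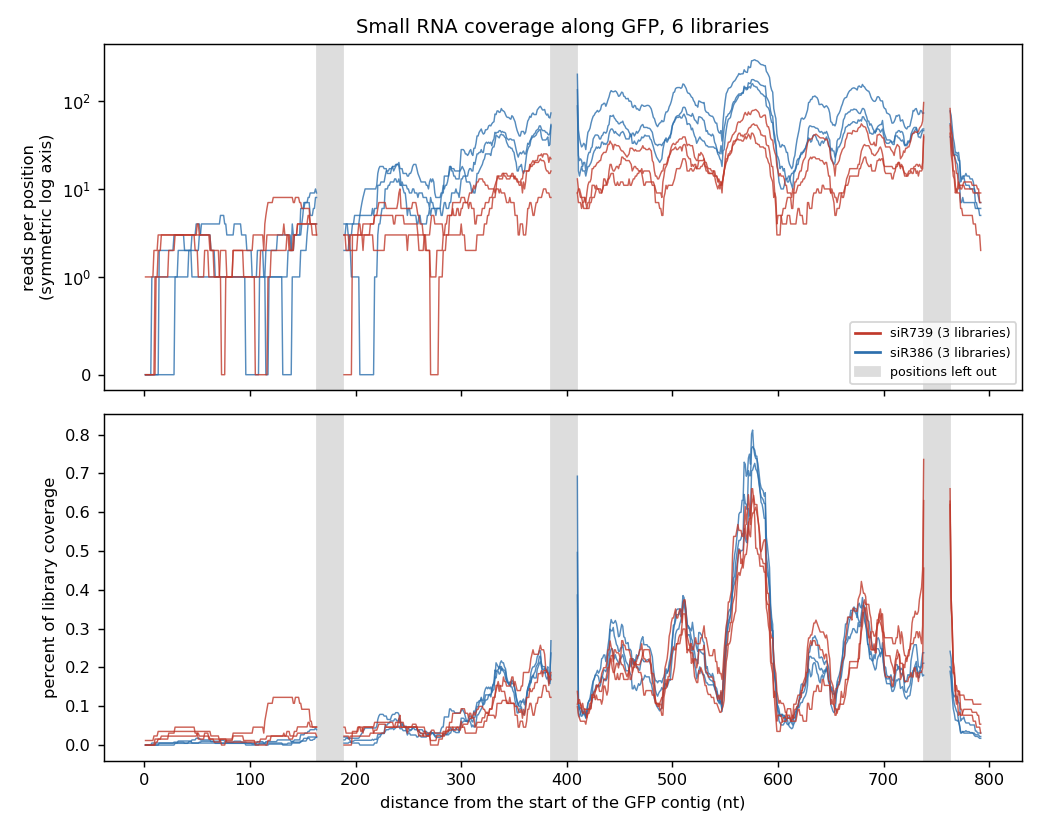
Coverage along the GFP contig in each of the 6 libraries, as reads per position (top, symmetric log axis) and in percent of all coverage at kept positions (bottom), against distance from the contig start; grey bands are the positions left out. Over most of the contig the siR739 lines lie below the siR386 lines in reads and run with them in percent. Both group means have a summit at position 576. It is the highest of the siR386 mean, while the siR739 mean is slightly higher at position 763, beside the siR739 site.

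The deficit was not even along the transgene. In raw coverage, siR739 libraries lay below every siR386 library in 19 of 32 windows of 25 nt (59.4%), lay above every siR386 library in 1 window (3.12%) and overlapped with them in 12. Between the siR164 and siR386 sites, siR386 replicates 4 to 6 averaged 19.8, 30.6 and 15.6 reads per position and siR739 replicates 7 to 9 averaged 8.87, 3.86 and 7.42. Between the siR386 and siR739 sites the values were 55.0, 101.6 and 47.5 after siR386 and 31.7, 15.1 and 19.3 after siR739. In both stretches every siR739 library was below every siR386 library (log2 differences −1.59 and −1.57, SE 0.41 and 0.45, exact permutation p = 0.1 for each).

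At both ends of the contig the raw levels overlapped. Before the siR164 site the siR386 libraries held 2.14, 2.62 and 1.12 reads per position and the siR739 libraries 2.31, 3.24 and 2.20. Past the siR739 site, positions 763 to 792 held 13.8, 20.9 and 15.5 reads per position after siR386 and 16.8, 8.30 and 13.1 after siR739. The log2 differences, siR739 minus siR386, were 0.30 (SE 0.26) before the siR164 site and −0.40 (SE 0.32) past the siR739 site, with an exact permutation p of 0.4 for each. Position by position, siR739 was below all siR386 libraries at 441 of 719 positions (61.3%), of which 298 were in the segment 5' of the siR739 site, 138 in the one 5' of the siR386 site, 5 past the siR739 site and 0 before the siR164 site. It was above all siR386 libraries at 10 positions (1.39%), all before the siR164 site. The positions of these counts share reads and are not separate measurements.

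Expressed as a share of each library's coverage, the distribution was compared by segment. From the siR386 site to the siR739 site lay 79.5%, 82.5% and 80.7% of coverage after siR386 and 79.8%, 76.4% and 74.1% after siR739, and the groups overlapped. The stretch between the siR164 and siR386 sites held 17.2%, 14.9% and 15.9% after siR386 and 13.4%, 11.7% and 17.1% after siR739, again with overlap. These segments differed by −4.13 and −1.93 percentage points, siR739 minus siR386 (adjusted exact permutation p = 0.267 and 0.3, adjusted over 4 segments). The first became −0.56 with the mean of positions 1 to 100 subtracted and −2.38 with 25 more positions left out beside each site. The second was −0.74 without siR739 replicate 8, −3.45 without siR739 replicate 9 and −3.79 with that mean subtracted.

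The ends held larger shares after siR739. Past the siR739 site lay 3.86%, 3.82% and 4.58% of coverage after siR739, against 1.82%, 1.55% and 2.40% after siR386. Before the siR164 site lay 2.89%, 8.11% and 4.20% after siR739, against 1.53%, 1.05% and 0.946% after siR386. In both end segments every siR739 library was above every siR386 library, by 2.17 and 3.89 percentage points in the means (adjusted exact permutation p = 0.2 for each, where 0.1 is the smallest raw p). The 3.89 points became 2.37 without siR739 replicate 8. They became 2.12 with the mean of positions 1 to 100 subtracted, a mean taken from within that segment. The 2.17 points became 0.30 with 25 more positions left out beside each site, where only the last few positions of the contig remained in the segment. Counting error was widest in siR739 replicate 8, whose 8.11% corresponds to about 24 reads (Wilson 95% interval 5.51% to 11.8%, counting error only). The shares of the 4 segments sum to the library's total, so they do not vary separately. In the authors' deposited table, which covers reads of 21, 22 and 24 nt without replicates, the shares were 0.982% after siR739 and 1.00% after siR386 before the siR164 site, and 0.848% and 0.336% past the siR739 site.

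**Figure D2:**
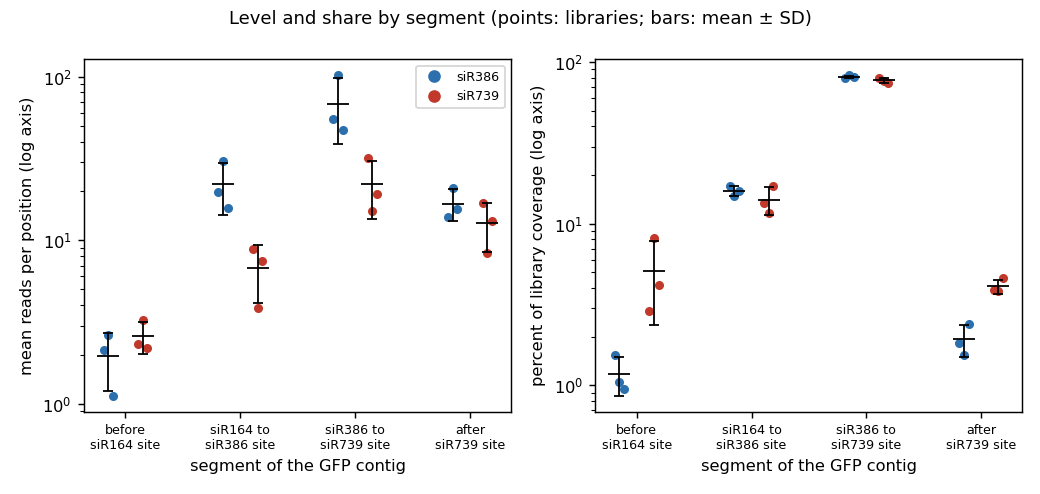
Mean reads per position (left) and percent of library coverage (right) in the 4 segments between the siRNA sites, on log axes; points are libraries and bars the mean ± SD of 3. The groups separate in reads only in the 2 inner segments and in share only in the 2 outer ones.

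The position by which a given percentage of coverage had accumulated from the 5' end described the same pattern. The median of coverage lay at 560, 560 and 562 after siR386 and at 572, 557 and 557 after siR739, and these overlapped (exact permutation p = 1). The first 5% was reached at position 263, 313 and 302 after siR386 and at 246, 132 and 216 after siR739, without overlap. The point of 90% lay at 694, 692 and 700 after siR386 and further 3', at 720, 716 and 711, after siR739, also without overlap. For the points of 5% and 90% the exact permutation p was 0.1. The 10% point overlapped, at 334, 348 and 343 after siR386 and at 338, 237 and 314 after siR739 (exact permutation p = 0.2). So did the 25% point (exact permutation p = 0.9), while the points of 75% and 95% did not (exact permutation p = 0.1 for each).

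In windows, shares were tested with limma on log2(percent share + 0.1), which understates folds of low shares, with all 9 libraries in the fit. Of 32 windows, 8 differed at an adjusted p under 0.05 (25%), 6 of them higher after siR739 (18.8%) and 2 lower (6.25%), while 15 had an unadjusted p under 0.05. By overlap alone, all siR739 libraries were above all siR386 libraries in 9 windows (28.1%) and below them in 4 (12.5%). All of the windows called higher lay at the ends, 4 of 7 windows up to position 175 and both windows past the siR739 site, and the 23 windows between held the 2 lower ones. With quantile normalization the split was 1 higher and 0 lower. With the mean of positions 1 to 100 subtracted from each library it was 1 and 1, of 27 windows tested. Windows 1–25, 26–50 and 101–125 then fell below a mean coverage of 1 and were not tested. That mean is itself taken from 5' positions, where the siR739 shares were higher. When shares were taken only of the positions between the siR164 and siR739 sites, 1 of 23 windows differed. These 23 do not include the windows called higher.

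**Figure D3:**
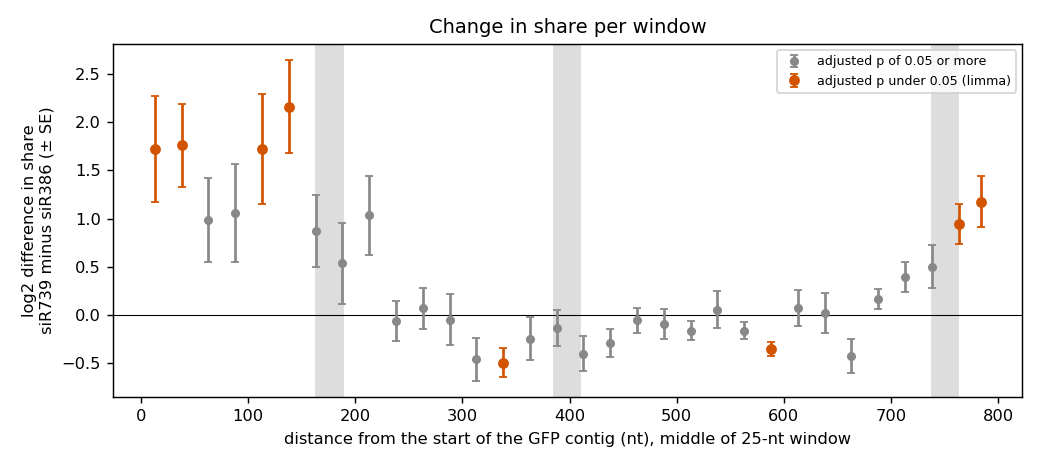
Log2 difference in share, siR739 minus siR386, with its SE in each of 32 windows along the contig; orange windows have a limma adjusted p under 0.05 and grey bands are the positions left out. The differences are above 0 in all 7 windows at the 5' end, above 0 also in the next 2 windows, from −0.50 to 0.08 between positions 226 and 650, and climb from window 651–675 to the 3' end.

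At the 3' end, window 776–792, the last stretch of the contig, held 1.42%, 1.09% and 1.91% of coverage after siR739 and 0.488%, 0.481% and 0.817% after siR386. All 3 siR739 libraries were higher, and the log2 difference was 1.18 (SE 0.27, limma adjusted p = 0.00371). Window 751–775, of which positions 763 to 775 were used, held 2.45%, 2.73% and 2.68% after siR739 and 1.34%, 1.07% and 1.58% after siR386, again without overlap (log2 difference 0.94, SE 0.21, limma adjusted p = 0.00371). In raw coverage these windows overlapped between the groups, at 8.22 ± 3.56 against 9.10 ± 2.48 reads per position for 776–792 and 18.6 ± 5.49 against 26.7 ± 5.64 for 751–775 (SD, n = 3). The call at 776–792 was lost with the mean of positions 1 to 100 subtracted (1.16, limma adjusted p = 0.0511) and with quantile normalization (0.87, adjusted p = 0.108). It was also lost with 25 more positions left out beside each site (1.08, adjusted p = 0.0775), where only the last few positions of the contig remained.

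On the 5' side of the siR739 site the difference climbed towards the site. The log2 difference was −0.43 in window 651–675, 0.17 in 676–700, 0.40 in 701–725 and 0.50 in the 13 kept positions of 726–750, and none of these 4 windows passed the test (limma adjusted p = 0.0800, 0.210, 0.0733 and 0.0911). Window 701–725 held 5.46%, 6.62% and 4.64% after siR739 and 4.18%, 3.83% and 4.51% after siR386. All siR739 libraries were higher there, and without siR739 replicate 9 both 701–725 and 726–750 passed. Without siR739 replicate 7, window 651–675 passed as lower (−0.67, limma adjusted p = 0.00150).

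Coverage right beside the sites was compared at each of the 4 edges. At the last position before the siR739 site, siR739 libraries had 96, 41 and 39 reads, falling to 59, 20 and 17 at the next position 5'. The siR386 libraries had 48, 73 and 46 reads at that last position and 48, 72 and 46 at the next. The last position stood above its neighbour in the siR739 libraries, where the log2 ratio of coverage + 1 to that 10 positions further 5' was 1.23 ± 0.091, against 0.00028 ± 0.14 after siR386 (SD, n = 3). The groups did not overlap (adjusted exact permutation p = 0.2 over 4 edges, raw 0.1).

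At position 410, the first past the siR386 site, siR386 libraries had 88, 201 and 134 reads and fell to 24, 47 and 16 at position 411. The siR739 libraries had 13, 9 and 9 reads at position 410 and 10, 7 and 10 at the next. The step was 2.28 ± 0.51 after siR386 and 0.35 ± 0.15 after siR739, without overlap (adjusted exact permutation p = 0.2). On the 5' side of the siR386 site, position 385 had 54, 73 and 52 reads after siR386 and 22, 8 and 16 after siR739, and the next position 5' had 43, 64 and 32 against 23, 8 and 15. The siR386 libraries fell by at least 9 reads over this 1 position and the siR739 libraries by at most 1, while the steps over 10 positions overlapped. Of the windows beside that site, 376–400 held 1.99%, 1.81% and 1.93% after siR386 and 1.82%, 1.38% and 2.08% after siR739, with overlap (log2 difference −0.13, SE 0.19, limma adjusted p = 0.659). Window 401–425 held 1.94%, 2.06% and 2.06% after siR386 and 1.30%, 1.67% and 1.55% after siR739, without overlap, and did not pass (log2 difference −0.40, SE 0.18, limma adjusted p = 0.0915).

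Past the siR739 site both groups declined. Position 763 had 82, 43 and 53 reads after siR739 and 55, 77 and 39 after siR386. The next position 3' had 46, 25 and 33 after siR739, a marked drop in each library, and 51, 68 and 38 after siR386. Counted 10 positions on, the values were 10, 6 and 11 against 7, 14 and 12. The steps over 10 positions, 2.58 ± 0.38 and 2.27 ± 0.60, overlapped (adjusted exact permutation p = 0.6). As a share of the library, position 763 held 0.628%, 0.660% and 0.620% after siR739 and 0.242%, 0.190% and 0.202% after siR386, without overlap.

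**Figure D4:**
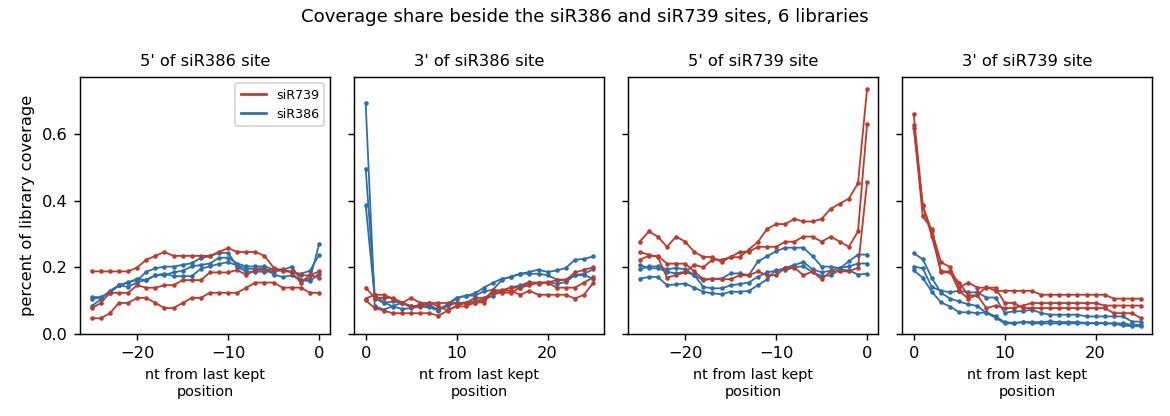
Percent of library coverage at the 26 positions on each side of the siR386 and siR739 sites, counted from the last kept position, in each library. Blue lines (siR386) stand out at position 410, and red lines (siR739) on both sides of the siR739 site.

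At the 5' end, 4 windows had higher shares after siR739, each on few reads. Window 26–50 held 0.583%, 1.06% and 0.877% after siR739 and 0.171%, 0.148% and 0.196% after siR386, without overlap (log2 difference 1.76, SE 0.43, limma adjusted p = 0.00507). Its raw coverage was 3.04, 2.76 and 3.00 reads per position after siR739 and 1.56, 2.40 and 1.52 after siR386, the only window in which siR739 lay above all siR386 libraries in raw reads. The call was lost with a pseudocount of 0.01 (2.19, limma adjusted p = 0.0868) and with quantile normalization (0.75, adjusted p = 0.113). Window 1–25 had shares of 0.409% ± 0.20 and 0.0525% ± 0.049 (SD, n = 3; log2 difference 1.72, SE 0.55, limma adjusted p = 0.0299), and siR386 replicate 4 had 0 reads there. This call was lost without each single siR386 replicate and without siR739 replicate 9 (limma adjusted p from 0.0838 to 0.110). It was also lost with a pseudocount of 0.01 (3.21, limma adjusted p = 0.115) and with quantile normalization (0.31, adjusted p = 0.586). Windows 51–75 and 76–100, next to these, had log2 differences of 0.99 and 1.05 (SE 0.43 and 0.51) and did not pass (limma adjusted p = 0.0911 and 0.102), although no libraries of the groups overlapped in either.

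Windows 101–125 and 126–150 were led by siR739 replicate 8. Window 126–150 held 0.598%, 2.95% and 0.795% after siR739 and 0.356%, 0.136% and 0.0982% after siR386 (log2 difference 2.16, SE 0.48, limma adjusted p = 0.00371). It was still called without replicate 8, at 1.51, and was lost with the mean of positions 1 to 100 subtracted (2.04, limma adjusted p = 0.0711) and with quantile normalization (1.56, adjusted p = 0.108). Window 101–125 held 0.391%, 1.81% and 0.222% after siR739 and 0.184%, 0.0568% and 0.0879% after siR386 (log2 difference 1.72, SE 0.57, limma adjusted p = 0.0312). Without replicate 8 its difference was 0.97 (limma adjusted p = 0.115), and it was called in 6 of 17 alternatives. On either side of the siR164 site, windows 151–175, 176–200 and 201–225 had log2 differences of 0.87, 0.54 and 1.04 (SE 0.37, 0.42 and 0.41), did not pass (limma adjusted p = 0.0872, 0.315 and 0.0733) and overlapped between the groups.

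The coverage behind these 5' windows was in part flat over long stretches. Unbroken runs of constant coverage longer than 24 positions occurred only before the siR164 site, in 4 of the 6 libraries. In siR739 replicate 9 coverage stayed at 3 from position 13 to 62, and in siR739 replicate 7 it stayed at 3 from position 16 to 49. In siR386 replicate 6 coverage stayed at 1 from position 45 to 95, and in siR386 replicate 4 from position 67 to 106. Reads of 24 nt or shorter can make such a run only where ends and starts meet exactly. In the authors' deposited table, limited to 21-, 22- and 24-nt reads, the siR739 column was listed at 0 up to position 74, and the siR386 column had values above 0 at 38 of the first 50 positions. The higher shares of windows 1–25 and 26–50 after siR739 therefore had no counterpart in the size classes of that table. The share of the whole segment before the siR164 site differed by −0.018 percentage points there and by 0.24 when the table was read 10 positions further 3'. In window 101–125 the authors' deposited table had 0.361% after siR739 and 0.118% after siR386, the direction of the library coverage. In window 126–150 it had 0.301% after siR739 and 0.324% after siR386, the opposite direction, and 0.158% and 0.0828% when read 10 positions further 3'.

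The 2 lower windows lay on either side of the siR386 site. Window 576–600, which holds the highest summit of the siR386 mean, held 10.5%, 9.02% and 9.67% after siR739 and 12.6%, 12.5% and 12.3% after siR386, without overlap. Its log2 difference was −0.35 (SE 0.073, limma adjusted p = 0.00371), and it was 0 with quantile normalization. The call was also lost with the mean of positions 1 to 100 subtracted (−0.25, limma adjusted p = 0.0511) and without a trend (adjusted p = 0.0513). In the authors' deposited table this window had 2.24% after siR739 and 1.72% after siR386, and 8.95% and 9.54% when read 10 positions further 3'. Within it and its neighbour, siR739 was below all siR386 libraries at 22 successive positions, 574 to 595, with 10.3% ± 0.54 against 13.1% ± 0.16 of coverage (SD, n = 3). Window 326–350 held 2.47%, 3.03% and 3.55% after siR739 and 4.32%, 4.12% and 4.31% after siR386 (log2 difference −0.50, SE 0.15, limma adjusted p = 0.0244), and a run of 26 positions, 321 to 346, lay below. Its call was lost without each single siR386 replicate (adjusted p from 0.0549 to 0.0838) and with the 6 libraries alone in the fit (adjusted p = 0.0798). It was also lost with quantile normalization (−0.37, limma adjusted p = 0.108). The same held with shares taken only of positions between the siR164 and siR739 sites (−0.41, adjusted p = 0.0841). In raw reads this window averaged 12.9, 7.88 and 12.2 after siR739 and 39.4, 66.8 and 33.3 after siR386, and its ratio of 4.24 was the largest of the 32 windows.

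Across all positions, shares of siR739 lay above all siR386 libraries at 166 of 719 (23.1%) and below them at 64 (8.9%). Of the 166, 109 lay before the siR164 site and 24 past the siR739 site, and the 64 were 26 positions on the 5' side of the siR386 site and 38 on its 3' side. The 5' positions of this count carried at most 8 reads each in the siR739 libraries up to position 150.

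The summits of the profile were largely at the same places. In the mean share of each group, 12 summits were found after siR739 and 11 after siR386 (prominence of at least 0.05 percentage points and at least 8 positions apart), and 8 of each had a summit of the other group within 3 positions. The shared ones were at 442, 511, 576 and 763 in both groups and, within 2 or 3 positions, near 340, 378, 637 and 682. Position 763 borders left-out positions without coverage, so a decline from it towards the 3' end was enough to make it a summit. Its count as shared therefore does not show a common peak. The summits at 385, 410 and the last position before the siR739 site also border left-out positions. Position 576, the highest summit of the siR386 mean, held 0.630% ± 0.031 after siR739 and 0.763% ± 0.052 after siR386 (SD, n = 3). The siR739 mean was highest at position 763, with 0.636% ± 0.021 against 0.211% ± 0.027 after siR386 (SD, n = 3). The siR386 summits at 385, 410 and 731 had no siR739 summit within 3 positions, and neither did the siR739 summits at 145, 696, 714 and the last position before the siR739 site have one of siR386. The most covered position was 576, 578 and 576 in the siR386 libraries, with 175, 294 and 157 reads, and 575 and 577 in siR739 replicates 8 and 9, with 43 and 55 reads. In siR739 replicate 7 it was the last position before the siR739 site, with 96 reads. Of the 5 windows with the highest share, 4 were common to both groups (551–575, 576–600, 501–525 and 676–700). The remaining one was 701–725 after siR739, at 5.57% ± 0.99, and 651–675 after siR386, at 5.93% ± 0.38. Window 551–575 held 12.7%, 11.8% and 13.8% after siR386 and 10.4%, 12.9% and 10.9% after siR739, with overlap. The 5 windows held 41.1% of coverage after siR739 and 45.4% after siR386.

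Similarity of whole profiles was close within and between groups. Over the 32 windows, the Pearson correlation of log2 shares averaged 0.971 over the 3 siR386 pairs, 0.900 over the 3 siR739 pairs and 0.907 over the 9 mixed pairs. The windows of a library are not independent of each other. Within minus between was 0.028 (one-sided exact permutation p = 0.1; with 10 partitions of 6 libraries none smaller is possible). Libraries of siR739 were on average no more like each other than like those of siR386. Replicate 8, the shallowest library, had correlations of 0.821 to 0.855 with the siR386 libraries and of 0.889 and 0.853 with siR739 replicates 7 and 9.

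Coverage steps gave a measure of fragment length that needs no size classes. A read adds to coverage where it starts and removes it where it ends, so a common read length appears as a negative correlation between coverage steps that far apart. Between the siR164 and siR386 sites this correlation was lowest at a distance of 21 positions in all 6 libraries, with r from −0.286 to −0.338 after siR386 and from −0.246 to −0.306 after siR739 (175 pairs of steps each). Between the siR386 and siR739 sites it was lowest at 21 positions in the 3 siR386 libraries (r = −0.297, −0.247 and −0.184) and in siR739 replicate 9 (r = −0.272; 307 pairs). It was lowest at 22 in siR739 replicate 7 (r = −0.288) and at 38 in siR739 replicate 8 (r = −0.170), where 22 positions gave −0.135 and 21 gave −0.105. Steps along a library share reads, so these values are descriptions and were not tested between groups.

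**Figure D5:**
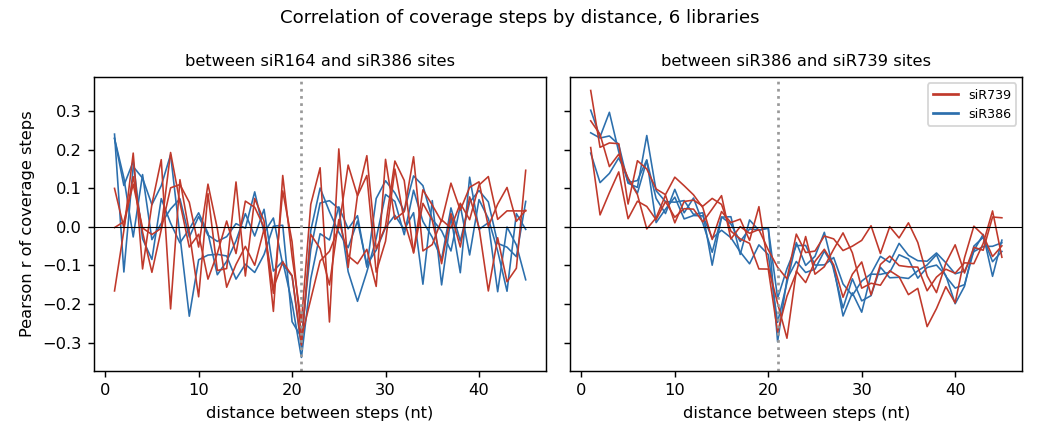
Pearson correlation between coverage steps against the distance between them, in the 2 inner segments, for each library; the dotted line marks 21 nt. All 6 libraries dip at 21 nt between the siR164 and siR386 sites, and the 3 siR386 libraries and siR739 replicate 9 do so between the siR386 and siR739 sites.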

How the data were processed

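Small RNA libraries were prepared from 16C leaves with a mirVana extraction and the TrueQuant SmallRNA kit, per the labels' protocols. The submitters' processing notes name Bowtie2, while settings, trimming and library totals are not given in sources used here. The authors deposited, per library, unscaled coverage signal in whole numbers for intervals of the GFP contig, and 1 table of normalized signal that pools each group and was used as support. Table positions tracked library coverage best 8 positions further 3' (r = 0.775 for siR386 and 0.714 for siR739 over 700 positions, against 0.707 and 0.635 in place).

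Groups and replicate numbers came from titles. Intervals were written from position 1, the left-out positions removed, and coverage divided by the library's kept total. Windows of 25 nt were kept from a mean coverage of 1 upward and tested with limma 3.58.1 in R 4.3.3 (trend, Benjamini-Hochberg, adjusted p under 0.05). The fit was also run on simulated reads that varied between libraries of a group by counting error only. That run cannot show the error rate of the fit on these pools. limma assumes 1 spread for all groups, although siR739 libraries held fewer reads. Levels, segments, edges and similarity used exact permutation tests (Python 3.11.15, scipy 1.17.1). Named windows were those called, the 5 highest per group, the 5 largest uncalled differences and those beside the sites; position runs, constant-coverage runs, summits and step correlations were added after the data were seen. Replicates were compared by chi-square over 26 windows (0.458 to 1.19 per degree of freedom), which found no difference over all windows together, although the intervals of replicates 7 and 8 before the siR164 site did not overlap; all were kept. Members, windows and tests were chosen with earlier results of these data known. The spread that p-values measure is that between these pooled libraries and may be technical.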

Additional observations from a re-analysis of the deposited data

Results flagged for a closer look

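Coverage above 3 reads appeared in the left-out positions of the siR164 site in 5 of the 6 libraries, although siR164 was not the siRNA applied there and the comparisons do not use these positions. The highest value was 48 reads in siR386 replicate 6, where all 25 positions were above 0 and together held 4.81% of the library's coverage. It was 25 reads in siR386 replicate 4, at 3 positions, and 5 reads in siR386 replicate 5 at 1 position. It was 5 reads in siR739 replicate 7 and 11 reads in siR739 replicate 8, each at 3 positions. In siR739 replicate 9 these positions held 0. What lies behind these values was not tested.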

How the results depend on the processing

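The lower level after siR739 kept its direction in all 11 alternatives (log2 −1.73 to −1.16), and no segment, edge, median position or similarity could pass with 3 libraries a group. The count of windows with a higher share, 6, was 3 with a pseudocount of 0.01 and 1 with quantile normalization. It was 13 of 75 with 10-nt windows. With background subtracted it was 1, but windows 1–25, 26–50 and 101–125 were then not tested. With shares taken only of positions between the siR164 and siR739 sites it was 0 (6 at unadjusted p under 0.05, either way). That setting leaves out all 6 windows called higher, so it could not call them. The count of lower windows, 2, was 1 with the 6 libraries alone, with background subtracted, without a trend and with shares of those inner positions, 0 with quantile normalization (14 at unadjusted p under 0.05, either way) and 5 with 10-nt windows. Leaving out 1 library gave 4 to 7 higher and 1 to 5 lower windows; it was 1 lower without each single siR386 replicate and 5 without siR739 replicate 7. Window 751–775 was called in all 17 alternatives that tested it. The settings with 25 more positions left out beside each site and with shares of inner positions remove it and did not test it. In the authors' deposited table the segment differences were −0.018 before the siR164 site and 0.51 from the siR386 site to the siR739 site, both reversed, and 0.51 past the siR739 site. Read 10 positions further 3' they were 0.24 before the siR164 site, −2.21 from the siR386 site to the siR739 site and 0.33 past the siR739 site. That table lacks the 3' end of the contig and its total includes the siRNA sites, so these differences do not compare like positions. The median position reversed to −1.67 with 25 more positions left out, and ranged from −3.67 to 3.83 with 1 library left out. The step past the siR739 site ranged from −0.014 (without siR386 replicate 6) to 0.58. Where no value above shows a cause, the cause was not tested. Shares of inner positions and the shifted table were chosen after seeing the data. Depth limits the 5' windows, which hold a few reads per position. No paired analysis was possible because the groups share no replicate numbers.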
